A study of Homo sapiens with 36 samples.

Results

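The WNT genes described here are 10 genes chosen by name: the ligands WNT5A, WNT7B and WNT10B, the coreceptors LRP5 and LRP6, the secreted antagonists DKK1 and SFRP1, the transcription factors TCF7 and LEF1, and the feedback gene AXIN2. All 10 were among the 27852 gene symbols of the expression table. They were measured by RNA sequencing in 36 cultures of 4 human PCa lines. DU145 and 22Rv1 are labelled osteolytic PCa (LPCa), and C4-2 and C4-2B are labelled osteoblastic PCa (BPCa). Each line had 3 mono-cultures, 2 co-cultures with MG63, 2 mono-cultures given RANKL at 50 ng/mL, and 2 co-cultures with RAW264.7 given the same RANKL. MG63 cells come from a human osteosarcoma and stood in for OBs, RAW264.7 cells are mouse macrophages that form OCs under RANKL, and the RANKL was soluble mouse protein. Partner cells grew beside the PCa cells behind a filter, all cultures lasted 5 days in αMEM with serum, and only the PCa side was read here. The labels name no genetic change in any line. A phenotype rests on 2 lines, and C4-2B is a subline of C4-2. The labels do not say whether replicates were separate cultures, so that p-values cover the spread between these samples only.

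WNT ligands are secreted lipid-modified proteins that bind a Frizzled receptor together with LRP5 or LRP6. In the canonical branch this stops the breakdown of β-catenin, which then acts with TCF and LEF factors on target genes such as AXIN2, whose product restores β-catenin breakdown. DKK1 blocks the pathway by binding LRP5 and LRP6, SFRP1 by binding the ligands, and in bone WNT activity favours OBs while DKK1 from tumour cells is known to restrain them.

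Promoter sequences are shown for the member with the widest range of levels, DKK1, and for the TCF7 start site next to the form that held the most TCF7 counts. RefSeq promoter windows (GRCh38.p14, 250 bases before to 50 after a start site) were at hand for 5 of the 10 members, WNT5A, LRP5, DKK1, TCF7 and LEF1. WNT7B, WNT10B, LRP6, SFRP1 and AXIN2 had no entry. The DKK1 window is chr10:52314031-52314330 on the plus strand and the TCF7 window is chr5:134115363-134115662 on the plus strand. Capitals mark TATAAA, the core of a TATA box, which lies on the shown strand 30 bases before the DKK1 start and on the opposite strand 32 bases before the TCF7 start, where it reads TTTATA.
DKK1: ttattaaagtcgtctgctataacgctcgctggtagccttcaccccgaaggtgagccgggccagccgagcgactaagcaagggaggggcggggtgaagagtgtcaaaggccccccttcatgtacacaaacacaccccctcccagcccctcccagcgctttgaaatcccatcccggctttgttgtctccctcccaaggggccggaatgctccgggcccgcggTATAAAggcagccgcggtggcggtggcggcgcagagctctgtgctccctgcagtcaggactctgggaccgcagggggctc
TCF7: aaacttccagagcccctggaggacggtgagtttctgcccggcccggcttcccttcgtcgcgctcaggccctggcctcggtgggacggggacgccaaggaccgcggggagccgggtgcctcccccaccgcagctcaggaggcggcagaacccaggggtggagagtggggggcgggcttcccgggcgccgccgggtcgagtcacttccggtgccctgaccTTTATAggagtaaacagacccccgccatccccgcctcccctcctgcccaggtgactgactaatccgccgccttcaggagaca
TATAAA on either strand was found in 11.5% of all 35116 promoter windows. The letters CTTTGAT, a core of the TCF/LEF site, were searched on both strands, do not overlap TATAAA, and were present in 2.62% of all windows. They were in none of the windows of the 5 members, which says only that these letters are not in these 300 bases.

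On GRCh38 in GENCODE 29, DKK1 lies on chromosome 10 from 52314296 to 52318042 (plus strand), WNT7B on chromosome 22 from 45920362 to 45977129 (minus) and WNT10B on chromosome 12 from 48965340 to 48971763 (minus). LRP6 lies on chromosome 12 from 12116025 to 12267012 (minus), LRP5 on chromosome 11 from 68312609 to 68449275 (plus), LEF1 on chromosome 4 from 108047545 to 108168956 (minus) and TCF7 on chromosome 5 from 134114711 to 134151865 (plus). WNT5A lies on chromosome 3 from 55465715 to 55490539 (minus), SFRP1 on chromosome 8 from 41261958 to 41309497 (minus) and AXIN2 on chromosome 17 from 65528563 to 65561647 (minus). All 10 are protein-coding genes.

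Levels are CPM, the estimated counts of a gene's transcripts per 1000000 counts of its library. The 12 mono-cultures without RANKL had 23932472 to 36719047 counts and the other 24 libraries 9593426 to 15418211, so that depth differs along with culture wherever these mono-cultures are the control. A level of 3 counts, the least taken as detectable, was at most 0.125 CPM in the former and 0.313 CPM in the latter, which covers counting error only. Replicate 2 of DU145 with MG63 stood apart: its correlations with the other 4 DU145 libraries without RANKL were 0.953 to 0.960 over 13454 genes, where the other pairs within a line reached at least 0.981. The libraries with RANKL also differed as a set. Of 303 genes that edgeR called more than 2-fold apart between C4-2B and C4-2 in mono-culture, 284 kept their direction with MG63 and 188 in the mono-cultures with RANKL. On the log2(CPM + 1) scale of group means, which understates the differences of low genes, their median difference was 0.98 in mono-culture, 0.88 with MG63 and 0.13 with RANKL. The 4 epithelial markers were above 3 counts in every line. Of 12 markers that MG63 cells could carry over, 3 to 8 were at or under 3 counts in the co-cultures, and their summed level was 53.7 to 56.4 CPM in 22Rv1 with MG63 against 37.2 to 41.3 CPM in mono-culture. TWIST1, which 22Rv1 itself expressed, made up most of that sum, at 40.6 to 43.7 CPM with MG63 and 27.3 to 30.4 CPM in mono-culture, and the other markers summed to 12.7 to 13.2 and 8.01 to 12.1 CPM. In C4-2B the sum of all markers was 9.62 to 10.0 CPM against 9.11 to 9.28 CPM, and in DU145 and C4-2 the ranges overlapped. The part of these markers in the results was not tested.

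**Figure D1:**
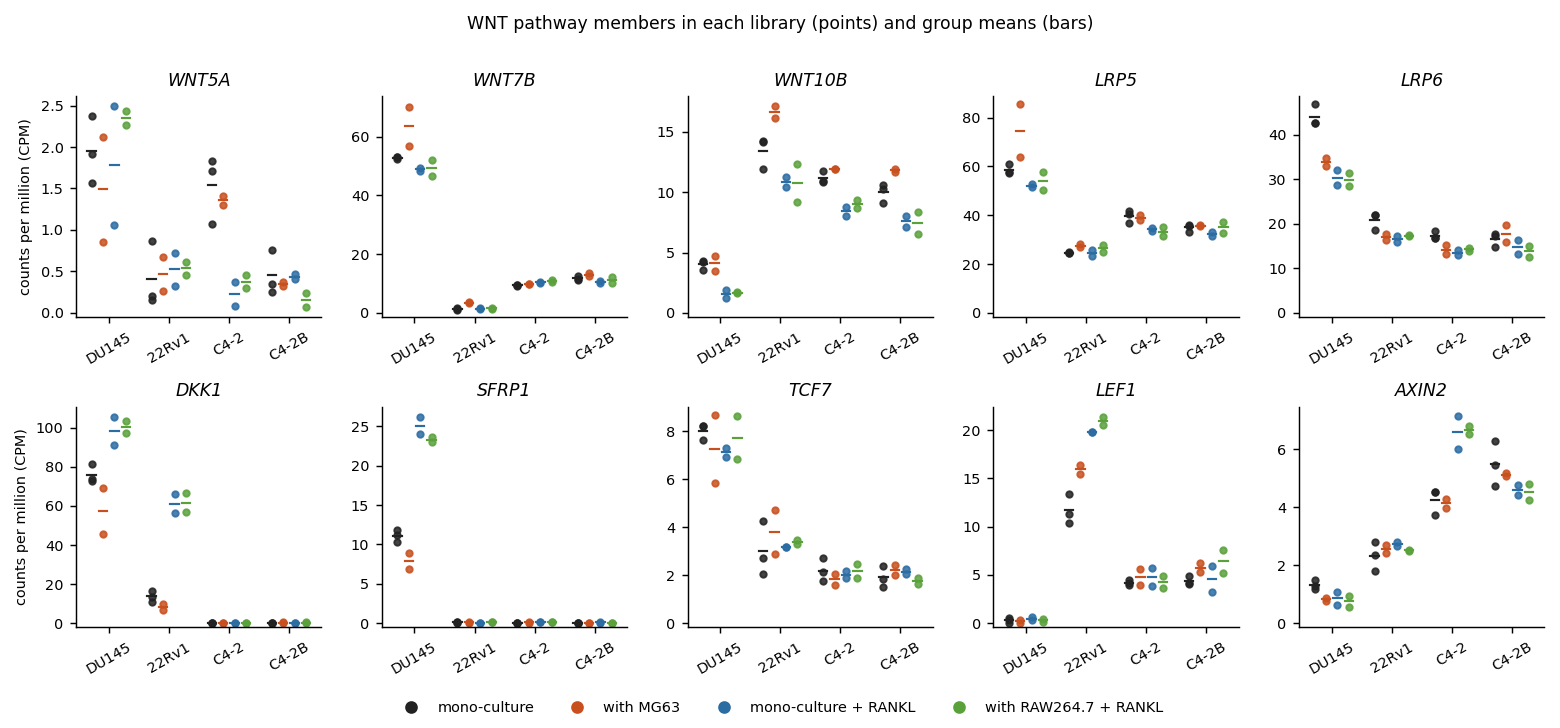
Level of each member (y axis, CPM, linear, one scale per gene) in the 36 libraries by cell line (x axis) and culture (colour), with points for libraries and short bars for group means of 2 or 3. DKK1 is over 6 CPM in every DU145 and 22Rv1 library and under 0.51 CPM in every C4-2 and C4-2B library, and SFRP1 is over 6 CPM in DU145 alone.

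The first comparison is between the lines in mono-culture. DKK1 was the member that set the lines furthest apart. In DU145 it was at 81.5, 72.9 and 74.1 CPM, or 76.1 ± 4.68 CPM (SD, n = 3), and in 22Rv1 at 11.04, 13.6 and 16.4 CPM, or 13.7 ± 2.66 CPM (n = 3). It was at 0 in all 3 C4-2 and in 2 of the 3 C4-2B mono-cultures, and at 0.0288 CPM, less than 1 count, in the third. Set against a floor of 3 counts per library, DKK1 was at least 703-fold higher in DU145 and at least 126-fold higher in 22Rv1 than in C4-2. Against C4-2B the bounds were 764-fold and 137-fold. Across all 18 BPCa libraries of any culture DKK1 never exceeded 5.85 counts, and 12 of them were at or under 3 counts. Within LPCa, DKK1 was higher in DU145 than in 22Rv1 by 2.49 in log2 units (standard error 0.18, adjusted p = 1.0e-08). This and all following adjusted p come from the quasi-likelihood test of edgeR, adjusted by Benjamini-Hochberg over all genes tested. SFRP1, the other secreted antagonist, followed DU145 alone: it was at 11.8, 11.2 and 10.3 CPM there, at or under 3.58 counts in every library of the other lines, and at least 102-fold higher in DU145 than in C4-2 mono-culture.

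The ligands divided the lines differently. WNT7B, a ligand of the canonical branch, was at 52.9, 53.2 and 52.3 CPM in DU145 and at 1.64, 1.23 and 1.12 CPM in 22Rv1, a difference of 5.33 in log2 units (standard error 0.11, adjusted p = 1.8e-16). The BPCa lines lay between, at 9.61, 9.01 and 9.63 CPM in C4-2 and at 11.2, 11.5 and 12.4 CPM in C4-2B. No libraries of different lines overlapped in WNT7B, and it was the only member called between C4-2B and C4-2, by 0.36 in log2 units (standard error 0.08, adjusted p = 0.0083). That call was lost with counts scaled by transcript length. WNT10B, a ligand known for promoting OB formation, had nearly the reverse order. It was at 13.4 ± 1.33 CPM in 22Rv1, 11.2 ± 0.505 CPM in C4-2, 9.99 ± 0.746 CPM in C4-2B and 4.04 ± 0.424 CPM in DU145 (SD, n = 3 each). DU145 was below every other line in each library, by 1.72 on the log2 scale against 22Rv1 (standard error 0.11, adjusted p = 4.3e-10). C4-2 and C4-2B did not differ beyond the test (log2 difference -0.12, 95% interval -0.34 to 0.11). WNT5A, a ligand mostly of the β-catenin-independent branch, never exceeded 2.49 CPM or 70.8 counts and so missed the minimum of 100 counts in every comparison. It averaged 1.95 ± 0.403 CPM in DU145, 1.54 ± 0.409 CPM in C4-2, 0.452 ± 0.265 CPM in C4-2B and 0.407 ± 0.401 CPM in 22Rv1 (SD, n = 3 each). In WNT5A, DU145 and C4-2 overlapped with each other and not with the other lines.

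The coreceptors were expressed in every library and varied least. LRP5 was at 57.1, 57.6 and 61.1 CPM in DU145, at 24.6, 24.5 and 24.8 CPM in 22Rv1, at 36.85 to 41.8 CPM in C4-2 and at 33.3 to 36.2 CPM in C4-2B. It was the only tested member not called between BPCa and LPCa (log2 difference 0.04, 95% interval -0.09 to 0.16), and its BPCa levels lay between those of the LPCa lines. LRP5 has a partial copy in the genome, and how the counting split reads between them is not known. LRP6 was at 42.6, 42.7 and 46.8 CPM in DU145, 18.5, 21.9 and 21.9 CPM in 22Rv1, 16.8 to 18.3 CPM in C4-2 and 14.7 to 17.7 CPM in C4-2B. A 562-base fragment transcript of LRP6, ENST00000535731, held 26.4% to 36.6% of its mono-culture counts by line.

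Of the nuclear factors and targets, LEF1 and TCF7, which bind the same DNA sites, were high in different lines. LEF1 was at 13.3, 11.3 and 10.4 CPM in 22Rv1, at 3.93 to 4.86 CPM in the 6 BPCa mono-cultures and at 0.483, 0.315 and 0.0402 CPM in DU145. TCF7 was at 8.22, 7.64 and 8.22 CPM in DU145, at 4.26, 2.04 and 2.73 CPM in 22Rv1, at 1.74 to 2.71 CPM in C4-2 and at 1.49 to 2.40 CPM in C4-2B. 22Rv1 overlapped with both BPCa lines in TCF7. AXIN2 was at 4.55, 4.53 and 3.72 CPM in C4-2 and at 5.45, 4.73 and 6.28 CPM in C4-2B. It was at 1.79, 2.34 and 2.799 CPM in 22Rv1 and at 1.18, 1.297 and 1.49 CPM in DU145. Both BPCa lines were thus above both LPCa lines in AXIN2, by 1.52 on average in log2 units (standard error 0.12, adjusted p = 4.7e-09), and C4-2B lay above C4-2 in every library without passing the test (0.41, 95% interval 0.08 to 0.74, adjusted p = 0.10).

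Between the averages of the BPCa and LPCa lines, 8 of 9 tested members were called, 4 higher and 4 lower in BPCa, where 79.8% of all 13437 genes tested were called. The members called higher were WNT7B (0.39 on the log2 scale), WNT10B (0.58), LEF1 (1.31) and AXIN2 (1.52). Those called lower were DKK1, SFRP1, LRP6 (-0.78) and TCF7 (-1.20). All 9 were called between DU145 and 22Rv1 (79.6% of all genes) and 1 between C4-2B and C4-2 (13.6%). Without the DU145 co-culture that stood apart the last comparison still called WNT7B alone, while the share of all genes rose to 27.4%. DKK1, SFRP1 and TCF7 reached the minimum of 100 counts in LPCa libraries alone and AXIN2 in BPCa libraries alone, so that a difference of these members was favoured by the filter. The phenotype averages hide the LPCa lines' own differences: in 4 members, DKK1, LRP6, AXIN2 and SFRP1, the 6 BPCa libraries did not overlap the 6 LPCa libraries, as in 40.8% of all genes. For SFRP1 that gap rests on values at or under 3.58 counts in 22Rv1. WNT7B, LEF1 and WNT10B were called between the phenotypes although 1 LPCa line was above and the other below the BPCa lines. With counts scaled by transcript length the WNT7B difference was 0.01 on the log2 scale and was not called.

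The estimated split among transcripts differed by member. DKK1 has 1 coding transcript, ENST00000373970, in the table. It held 59.4% to 60.5% of DKK1 counts in DU145 mono-cultures and 56.3% to 75.8% in 22Rv1, and the rest fell on 3 transcripts annotated without a reading frame. For TCF7, forms whose reading frame begins at the downstream start, which lack the β-catenin-binding region, held 62.2% of TCF7 counts on average in DU145 mono-culture (50.8% to 69.4%) and 56.4% in 22Rv1 (44.7% to 69.9%). The 2 forms that begin at the upstream start held 19.9% (10.8% to 31.2%) and 6.55% (0% to 11.4%). The most abundant form in DU145 and 22Rv1 was ENST00000395023, whose start at 134115625 lies inside the TCF7 window printed above. The ranges of DU145 and 22Rv1 overlap for each form. In C4-2 mono-culture the downstream forms held 44.6% (26.5% to 59.7%) and the upstream forms 6.79% (0% to 15.3%). In C4-2B these shares were 35.2% (18.8% to 44.2%) and 19.1% (4.54% to 41.9%) and overlapped. They also overlapped in DU145 with MG63, at 41.95% (34.6% and 49.3%) and 43.6% (22.6% and 64.7%). The 3 long coding transcripts of LEF1 held 51.5% of its counts in 22Rv1 mono-culture (44.8% to 61.8%), 68.6% in C4-2 (60.8% to 79.8%) and 65.6% in C4-2B (53.1% to 76.1%). These shares come from a statistical assignment of reads shared by transcripts.

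Levels of different genes were compared in TPM, which divides counts by transcript length and scales each library to the same sum. Among 19 WNT ligand genes, DU145 mono-culture had 5 at or above 1 TPM: WNT7B at 17.6, WNT5B at 5.18, WNT10B at 2.38, WNT3 at 2.35 and WNT10A at 2.34 TPM. 22Rv1 had 2, WNT10B at 6.79 and WNT8B at 2.61 TPM. C4-2 and C4-2B had the same 3, WNT10B at 6.25 and 5.59 TPM, WNT7B at 2.67 and 3.27 TPM, and WNT8B at 2.11 and 1.75 TPM. Over all 19 genes the TPM summed to 33.0 in DU145, 12.9 in 22Rv1, 13.7 in C4-2 and 13.3 in C4-2B. WNT7B thus led in DU145 and WNT10B in the other 3 lines.

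**Figure D2:**
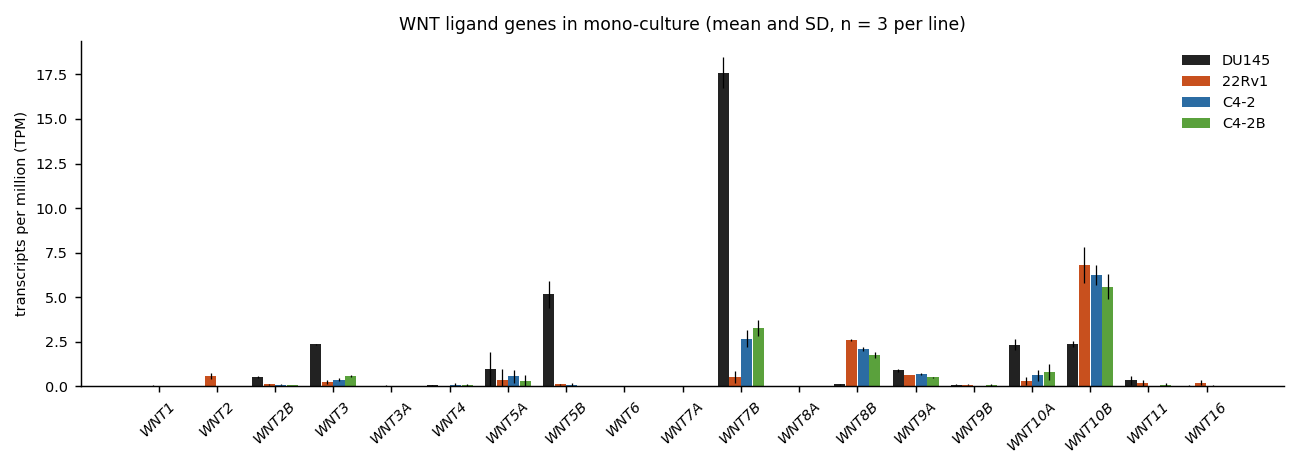
Level of 19 WNT ligand genes (x axis) in mono-culture in TPM (y axis, linear from 0), with bars for the mean and lines for the SD of 3 libraries in each of the 4 cell lines (colour). WNT7B reaches 17.6 TPM in DU145, and WNT10B is the highest ligand in 22Rv1, C4-2 and C4-2B at 5.59 to 6.79 TPM.

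Of 91 WNT pathway genes in 7 lists, 59 were tested between the lines, and 24 were called higher and 26 lower in BPCa than in LPCa, with a median log2 difference of -0.03 beside -0.01 over all genes. Of all genes, 39.4% were called higher and 40.4% lower in BPCa, so that most genes of any list are called. Among ligands 3 were called higher and 3 lower of 7 tested. WNT5B was higher in LPCa through DU145 (8.97 CPM in DU145, at most 0.266 CPM on average in other lines) and WNT8B was at 5.59 CPM in 22Rv1, 4.42 in C4-2, 3.70 in C4-2B and 0.259 CPM in DU145. Among 13 receptors tested, 5 were called higher and 5 lower. FZD4, a Frizzled receptor, was at 17.6 and 18.6 CPM in C4-2 and C4-2B against 4.33 in 22Rv1 and 3.02 CPM in DU145, and PTK7, a coreceptor of the planar polarity branch, was at 43.9 CPM in DU145 and 3.98 to 9.01 CPM in the others. Of the 5 antagonists and partners tested, DKK3 followed DU145 (4.44 CPM, and at most 0.0784 CPM elsewhere), while KREMEN2, which joins DKK1 in clearing LRP6, was at 30.03 CPM in 22Rv1, 15.98 in C4-2, 16.9 in C4-2B and 1.73 CPM in DU145. The stem cell receptor LGR5 and its ligand RSPO4 were at 9.07 and 5.28 CPM in 22Rv1 and under 0.07 CPM elsewhere. GSK3B and GSK3A, kinases of the destruction complex, differed by 0.71 and -0.87 on the log2 scale between BPCa and LPCa. The corepressors TLE1 and TLE4 were both high in DU145 (22.2 and 18.3 CPM), and in C4-2 and C4-2B TLE1 was at 19.8 and 10.9 CPM and TLE4 at 0.378 and 0.308 CPM. ASCL2, a target gene, was at 3.99 and 4.37 CPM in C4-2 and C4-2B against 0.696 in 22Rv1 and 0.0844 CPM in DU145. Of the 11 feedback and target genes tested, 7 were called higher and 4 lower in BPCa.

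The second comparison asks how MG63 co-culture changed the PCa cells. The clearest change was a rise of WNT7B in 22Rv1. WNT7B went from 1.64, 1.23 and 1.12 CPM in mono-culture to 3.42 and 3.604 CPM with MG63, on 29.5 to 41.2 and 42.4 to 51.8 counts. Its log2 fold change was 1.51 (standard error 0.16, adjusted p = 1.0e-05), 1.32 when mono-cultures with RANKL served as control, and 1.39 to 1.67 with any 1 library left out. With counts scaled by transcript length it was 0.99 (adjusted p = 0.14). In DU145, WNT7B was at 56.8 and 70.3 CPM with MG63, a log2 fold change of 0.34 (standard error 0.09, adjusted p = 0.0091). In C4-2 it was at 9.78 and 9.71 CPM (0.16, 95% interval -0.06 to 0.38) and in C4-2B at 12.7 and 13.5 CPM (0.22, 95% interval 0.01 to 0.43, adjusted p = 0.22). With MG63, WNT7B was above the mono-cultures without overlap in all 4 lines, the only member to be so, as were 2.1% of all genes.

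DKK1 moved the other way in the 2 lines that express it. In DU145 it was at 45.6 and 69.3 CPM with MG63 and 72.9 to 81.5 CPM in mono-culture. In 22Rv1 it was at 6.58 and 10.0 CPM against 11.04 to 16.4 CPM. Neither line alone passed the test (DU145 -0.34, adjusted p = 0.20, and 22Rv1 -0.63, adjusted p = 0.081), and their average fell by 0.49 in log2 units (standard error 0.15, adjusted p = 0.026). Against mono-cultures that had RANKL the average was -1.79, and with counts scaled by transcript length it was -0.46 and not called (adjusted p = 0.36). Without replicate 2 of DU145 with MG63, the library that stood apart, DKK1 was called in both lines, at -0.66 (adjusted p = 0.031) and -0.64 (adjusted p = 0.021). The average was not called without replicate 1 of 22Rv1 with MG63 (-0.33, adjusted p = 0.16), without mono-culture replicate 3 of 22Rv1 (-0.40, adjusted p = 0.062) or without mono-culture replicate 1 of DU145 (-0.46, adjusted p = 0.052). In BPCa cells DKK1 stayed at or under 4.46 counts with MG63. DKK1 was tested there only because its LPCa counts passed the filter, so that the call of the BPCa average (adjusted p = 0.027) is not read as a change and no fold is given. It was lost without C4-2B co-culture replicate 2, C4-2 co-culture replicate 2 or C4-2B mono-culture replicate 1 (adjusted p of 0.22, 0.22 and 0.050), with length-scaled counts (0.079) and against the mono-cultures with RANKL.

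Among the other members, WNT10B was at 16.2 and 17.1 CPM in 22Rv1 with MG63 against 11.9, 14.1 and 14.3 CPM (log2 fold change 0.42, standard error 0.12, adjusted p = 0.022). The call was lost without either 22Rv1 co-culture (0.47, adjusted p = 0.062 without replicate 1, and 0.35, adjusted p = 0.18 without replicate 2) or without mono-culture replicate 1 (0.33, adjusted p = 0.081). It was also lost when scaled by library size alone (0.31, adjusted p = 0.066), with no filter (0.37, adjusted p = 0.074) and with length-scaled counts (0.45, adjusted p = 0.13). WNT10B reached 11.9 and 11.9 CPM in C4-2 and 11.9 and 11.7 CPM in C4-2B, above all their mono-cultures and not called in either line. The BPCa and LPCa averages of WNT10B were each 0.26 (adjusted p = 0.047 and 0.049), close to the threshold, and many settings lost both calls. With any 1 library left out the BPCa average was 0.22 to 0.28 and the LPCa average 0.13 to 0.36. The other settings gave 0.17 to 0.57 and 0.17 to 1.07. LRP5 was at 63.7 and 85.6 CPM in DU145 with MG63 (0.42, adjusted p = 0.0040) and LRP6 at 34.8 and 33.0 CPM against 42.6 to 46.8 CPM (-0.31, adjusted p = 0.032). All 3 DU145 calls were lost without the co-culture library that stood apart: WNT7B was then at 0.18 (adjusted p = 0.14), LRP5 at 0.20 (adjusted p = 0.086) and LRP6 at -0.26 (adjusted p = 0.17). LRP6 was also lost without DU145 mono-culture replicate 3 (-0.26, adjusted p = 0.095), with the filterByExpr filter (-0.27, adjusted p = 0.064), with median-of-ratios size factors (-0.26, adjusted p = 0.055) and with length-scaled counts (-0.20, adjusted p = 0.60), and it reversed to 0.17 (adjusted p = 0.23) against the mono-cultures with RANKL. TCF7, LEF1, AXIN2 and SFRP1 were called in no line with MG63. LEF1 was at 16.4 and 15.4 CPM in 22Rv1 against 10.4 to 13.3 CPM (0.56, 95% interval -0.02 to 1.13) and AXIN2 at 0.865 and 0.768 CPM in DU145 against 1.18 to 1.49 CPM (-0.62, adjusted p = 0.14).

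In all, MG63 gave 3 member calls of 9 in DU145 (30.5% of all genes), 2 in 22Rv1 (20.4%), 0 in C4-2 (10.1%) and 0 in C4-2B (7.41%). In C4-2 1 member, DKK1, had an unadjusted p under 0.05, as did 3175 of all 13437 genes. In C4-2B 3 members did, 1 of them DKK1, as did 2829 of all genes. The order of the lines in these counts rests on the DU145 library that stood apart. Without it 1 member was called in DU145 (15% of all genes), 4 in 22Rv1 (36.4%), 0 in C4-2 (23.9%) and 0 in C4-2B (20.2%). Over the averages, 2 members were called in BPCa (19.6%), 1 of them DKK1, and 5 in LPCa (35.1%). Without the library that stood apart these were 3 (34.9%), again with DKK1, and 4 (31.2%), so that the order of the shares of all genes turned. The difference of the 2 responses, BPCa minus LPCa, was called for WNT7B, at -0.73 in log2 units (standard error 0.11, adjusted p = 0.0011), and for DKK1, whose BPCa side lies at the detection limit, while 9.85% of all genes were called. For WNT7B the LPCa average (0.92, standard error 0.09) joins a larger change in 22Rv1 to a smaller one in DU145, and whether these 2 lines differ was not tested. The WNT7B difference ranged from -0.81 to -0.66 with any 1 library left out and was -0.54 (adjusted p = 0.37) with counts scaled by transcript length. Length-scaled counts are the alternative closest to the scaled TPM that the study worked with, and under them 0 members were called with MG63 in any single line. LRP5 (-0.26, adjusted p = 0.099) and LRP6 (0.23, adjusted p = 0.18) did not pass.

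**Figure D3:**
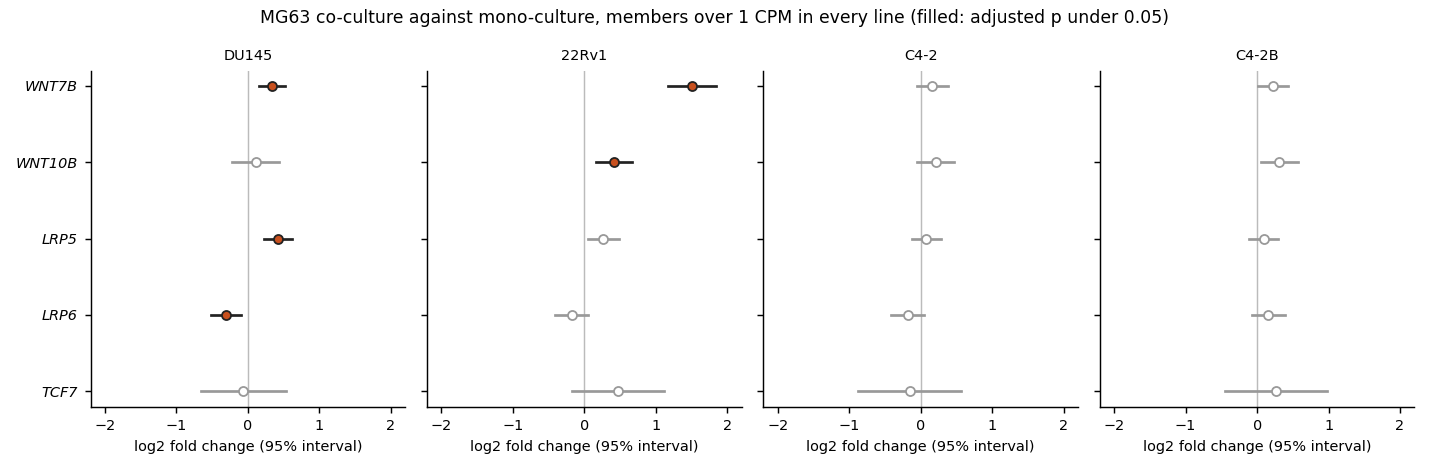
Log2 fold change of MG63 co-culture against mono-culture (x axis, with its 95% interval) for the 5 members over 1 CPM in every group mean, in a panel per cell line, with filled points where the adjusted p was under 0.05. WNT7B in 22Rv1 lies furthest from 0, at 1.51, and no point is filled in C4-2 or C4-2B.

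Of the 59 pathway genes, 7 were called higher and 10 lower with MG63 in DU145, where 15.2% of all genes were higher and 15.3% lower. In 22Rv1 5 were higher and 4 lower (11.2% and 9.18% of all genes), in C4-2 3 and 3 (5.3% and 4.79%), and in C4-2B 2 and 1 (3.52% and 3.89%). Without the DU145 library that stood apart, 4 were called higher and 4 lower in DU145, where 15% of all genes were called in that fit. The counts were then 11 and 7 in 22Rv1 (36.4%), 8 and 5 in C4-2 (23.9%), and 4 and 3 in C4-2B (20.2%). With all libraries their median log2 fold change was -0.05, 0.11, 0.11 and 0.06, beside -0.062, 0.00103, -0.00851 and -0.00166 over all genes. Past 2-fold, NKD2, a feedback inhibitor of dishevelled, rose in 22Rv1 from 3.84 ± 0.165 CPM (SD, n = 3) to 7.41 ± 0.997 CPM (n = 2; 1.04, adjusted p = 0.0020) and in C4-2 from 2.59 ± 0.586 to 4.88 ± 0.00912 CPM (1.03, adjusted p = 0.0060). BCL9, a β-catenin cofactor, fell in C4-2 from 3.16 ± 0.397 to 1.18 ± 0.363 CPM (-1.34, adjusted p = 0.0077), and WNT10A fell in DU145 from 2.754 ± 0.585 to 0.981 ± 0.150 CPM (-1.42, adjusted p = 0.044). The WNT10A call was lost without the library that stood apart (-1.26, adjusted p = 0.21). RSPO4 was also called in C4-2B, on at most 4.54 counts, and no fold is given.

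The third comparison sets RAW264.7 co-culture with RANKL against RANKL alone, within the set of libraries that share depth and RANKL. None of the 8 members tested was called by edgeR in any line, at 0.026% of all 11525 genes in DU145, 0.00868% in 22Rv1, 0.0174% in C4-2 and 0.139% in C4-2B. DESeq2 called 0 members, and 0 had an unadjusted p under 0.05 in any line, where 722 to 762 of all genes did. For the 5 members over 1 CPM in every line, WNT7B, WNT10B, LRP5, LRP6 and TCF7, the 20 log2 fold changes lay between -0.29 and 0.14 and their 95% intervals between -0.85 and 0.78. DKK1 was at 91.2 and 106 CPM in DU145 with RANKL alone and 103 and 97.3 CPM with RAW264.7 (0.01, 95% interval -0.23 to 0.26). In 22Rv1 it was at 56.2 and 65.9 CPM and at 66.7 and 56.7 CPM (0.05, 95% interval -0.22 to 0.32). The libraries of both cultures overlapped in each line for DKK1. AXIN2 had too few counts to be tested here. Of 10 macrophage and OC markers, TYROBP and AIF1 were at 0 in every library, and the summed level of the list in DU145 was 63.0 to 65.1 CPM with RAW264.7 and 63.4 to 66.7 CPM with RANKL alone. In 22Rv1, C4-2 and C4-2B the highest sums with RAW264.7 were 12.7, 22.2 and 23.2 CPM, against 14.8, 24.8 and 23.4 CPM. DU145 mono-cultures without RANKL already had 69.4 to 85.1 CPM. The markers were counted under human gene symbols and RAW264.7 cells are from mouse, so that these sums cannot show whether their RNA was carried over. Of 44 pathway genes tested, 0 were called in any line.

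The last comparison is between mono-cultures with and without RANKL. Here RANKL, the depth and the set of libraries in which C4-2 and C4-2B lost most of their difference change together and cannot be told apart. The clearest difference was that of DKK1 in 22Rv1. It was at 56.2 and 65.9 CPM with RANKL and at 11.04, 13.6 and 16.4 CPM without, a log2 fold change of 2.18 (standard error 0.19, adjusted p = 2.1e-08). It stayed between 2.05 and 2.35 with any 1 library left out. Both libraries with RANKL, and both with RAW264.7 and RANKL, lay above every 22Rv1 library without it, 6.58 to 16.4 CPM. In DU145, DKK1 was at 91.2 and 106 CPM against 72.9 to 81.5 CPM (0.47, adjusted p = 0.040). This call was lost without either DU145 library with RANKL (0.55, adjusted p = 0.074, and 0.37, adjusted p = 0.26) and without mono-culture replicate 2 or 3 (0.44, adjusted p = 0.099 and 0.10). It was also lost under DESeq2 (0.48, adjusted p = 0.052), with the filterByExpr filter (0.47, adjusted p = 0.050), with no filter (0.46, adjusted p = 0.065), scaled by library size alone (0.37, adjusted p = 0.094) and with length-scaled counts (0.27, adjusted p = 0.72). SFRP1 rose with DKK1 in DU145, to 26.2 and 24.0 CPM from 10.3 to 11.8 CPM (1.28, standard error 0.16, adjusted p = 1.6e-06), and was at 23.6 and 23.0 CPM with RAW264.7 and RANKL.

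WNT10B fell in DU145 to 1.25 and 1.87 CPM from 4.31, 3.55 and 4.25 CPM (-1.31, standard error 0.20, adjusted p = 1.4e-05), and was at 1.64 and 1.73 CPM with RAW264.7. It lay below the mono-cultures without RANKL in every library of all 4 lines, as did 7.27% of all genes, while only DU145 passed the test. The other log2 fold changes of WNT10B were -0.27 in 22Rv1, -0.32 in C4-2 and -0.32 in C4-2B, with adjusted p of 0.11 to 0.17. LRP6 fell in DU145 to 28.7 and 32.0 CPM from 42.6 to 46.8 CPM (-0.44, adjusted p = 0.0010) and was not called elsewhere. With length-scaled counts it was -0.46 and not called (adjusted p = 0.20). LEF1 rose in 22Rv1 to 19.8 and 19.8 CPM from 10.4 to 13.3 CPM (0.78, standard error 0.25, adjusted p = 0.033), and was at 20.5 and 21.4 CPM with RAW264.7. Its call was lost without either library with RANKL (0.78, adjusted p = 0.14, and 0.79, adjusted p = 0.16) and without mono-culture replicate 2 (0.76, adjusted p = 0.080) or 3 (0.71, adjusted p = 0.10), with no filter (0.73, adjusted p = 0.058) and with length-scaled counts (0.65, adjusted p = 0.56). AXIN2 rose in C4-2 to 7.15 and 6.03 CPM from 3.72 to 4.55 CPM (0.72, standard error 0.17, adjusted p = 0.0046), with 6.81 and 6.52 CPM in the RAW264.7 co-cultures. Without replicate 1 of C4-2 with RANKL it was 0.59 (adjusted p = 0.11). In C4-2B AXIN2 was at 4.42 and 4.76 CPM against 4.73 to 6.28 CPM (-0.18, 95% interval -0.55 to 0.19). AXIN2 was thus higher in C4-2B than in C4-2 without RANKL (means of 5.49 and 4.27 CPM) and lower with it (4.59 and 6.59 CPM). Whether the RANKL libraries of C4-2 and C4-2B each hold the line on their label was not tested. DKK1 was also called in C4-2, on at most 3.02 counts, after passing the filter through its LPCa counts. This call was lost in 12 alternatives (among them no filter, adjusted p = 0.060, length-scaled counts, 0.14, and each C4-2 mono-culture with or without RANKL left out, 0.076 to 0.16), is not read as a change and has no fold. WNT5A, too low to be tested, was at 0.378 and 0.0781 CPM (5.06 and 0.849 counts) in C4-2 with RANKL. It was at 1.71, 1.83 and 1.07 CPM without RANKL, and at 0.455 and 0.295 CPM with RAW264.7.

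RANKL thus went with 4 member calls of 9 in DU145 (32.5% of all 13454 genes), 2 in 22Rv1 (17.7%), 2 in C4-2 (18.3%), 1 of them DKK1, and 0 in C4-2B (14.4%). In C4-2B 1 member had an unadjusted p under 0.05, as did 3673 of all genes. Without the DU145 co-culture with MG63 that stood apart, which shares the fit, the counts were 4 (43% of all genes), 3 (28.2%), 2 (29%) and 0 (25.1%), with LRP6 added in 22Rv1. LRP5 and TCF7 were called in no line. WNT7B was called in no line either, and in 22Rv1 it was at 1.27 and 1.61 CPM with RANKL. Of the 59 pathway genes, 15 were called higher and 7 lower in DU145, where 16.9% of all genes were higher and 15.6% lower. In 22Rv1 8 were higher and 5 lower (8.9% and 8.85% of all genes), in C4-2 7 and 4 (9.16% and 9.16%), and in C4-2B 3 and 7 (6.07% and 8.32%). Their median log2 fold changes were 0.10, 0.10, 0.07 and -0.04 beside -0.01, -0.01, -0.02 and -0.02 over all genes.

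**Figure D4:**
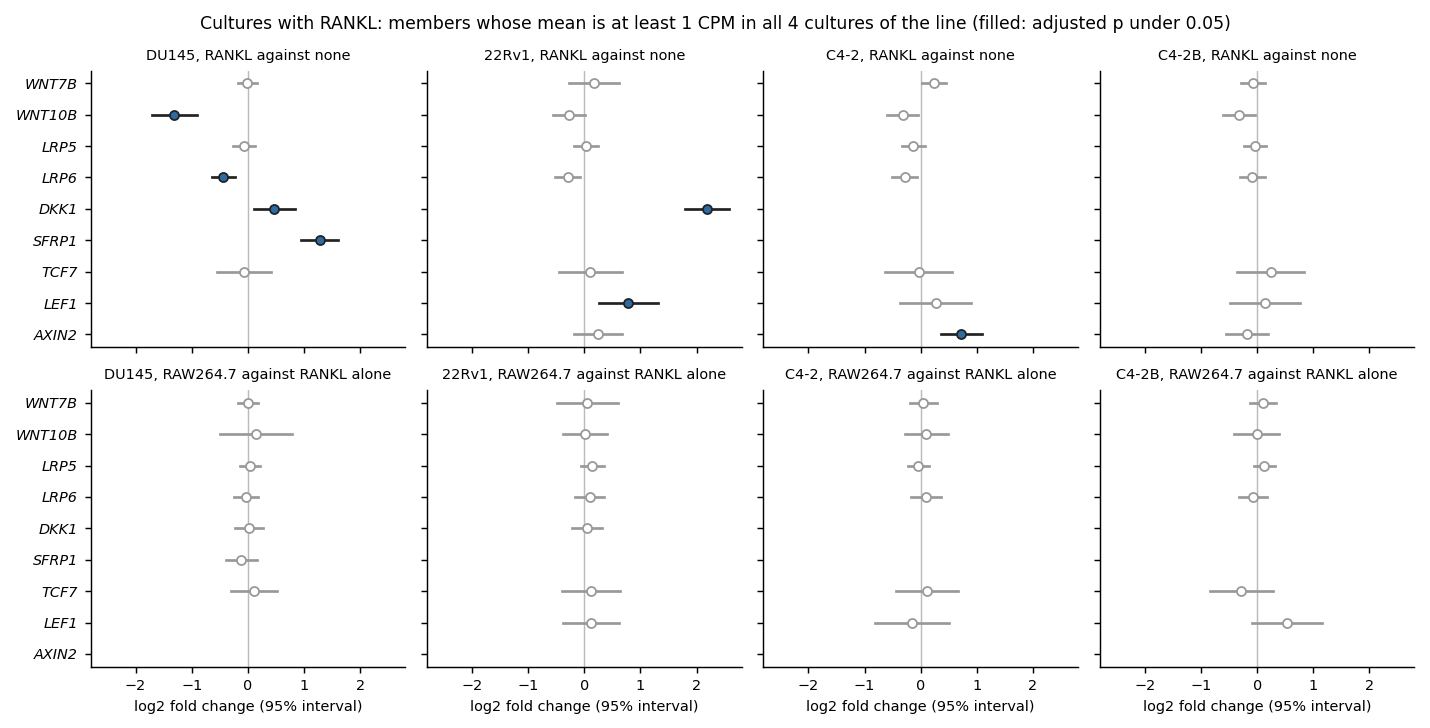
Log2 fold change (x axis, with its 95% interval) of RANKL against no RANKL in mono-culture (upper row) and of RAW264.7 with RANKL against RANKL alone (lower row), in a panel per cell line, for members with a mean of at least 1 CPM in all 4 cultures of that line; filled points have an adjusted p under 0.05. DKK1 in 22Rv1 lies at 2.18 in the upper row, and no point is filled in the lower row.

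The genes whose levels followed the members most closely over the 16 group means were found by Pearson's r of mean log2(CPM + 1) with 13454 genes. The groups are 4 cultures of each of 4 lines, so that each 4 share a cell line and r mostly follows the lines. DKK1 was most like SLFN11 (0.99), DPY19L2P1 (0.99) and PDGFC (0.99), and SFRP1 most like C11orf45 (0.999), BNC1 (0.999) and CYP24A1 (0.998). WNT7B was most like COTL1, NXN and MYH10 (each 0.99), WNT10B most like HDAC1 (0.98), TSEN54 (0.97) and EIF4B (0.97), and WNT5A most like GAD1 (0.92), CNKSR3 (0.92) and PKIA (0.91). LRP5 was most like CCDC88B, GRHPR and UXS1 (each 0.98), and LRP6 most like RCE1 (0.99), MIB1 (0.99) and NDUFAF7 (0.98). TCF7 was most like FLNC, DEDD2 and NID1 (each 0.99), LEF1 had RAB19 and IRX5 among its most like genes (each 0.99), and AXIN2 most like SMPD1, YIF1B and BST2 (each 0.98).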

How the data were processed

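Poly-A RNA of 36 cultures in 16 groups was sequenced with a strand-specific kit. The authors deposited one table of estimated counts per transcript, made with kallisto per the labels, without normalization. The submitters' processing notes also name FastQC and hg19, and give no versions.

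Of 161149 lines, 1179 transcripts were repeated with identical values and were used once, leaving 159837 transcripts, of which 6878 had no symbol (0.526% to 0.764% of counts). Estimated counts were summed per gene symbol, rounded to whole numbers for tests, and tested with edgeR 4.0.16 in R 4.3.3 (TMM, quasi-likelihood, Benjamini-Hochberg adjustment over all genes, adjusted p under 0.05). Genes needed 100 counts in at least 1 sample. The 20 libraries without RANKL shared 1 fit (13437 genes), the 16 with RANKL another (11525 genes), and RANKL itself was tested over all 36 (13454 genes). CPM used library totals, and TPM used GENCODE 29 transcript lengths, found for 95.4% of transcripts. GRCh38 coordinates and RefSeq sequences were looked up by symbol and are not from the files' build.

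The members and lists were chosen with earlier results of these data known. Named genes were all 10 members, list genes past 2-fold with MG63 or RAW264.7, the 2 per list with the largest called BPCa against LPCa difference, and 3 like genes per member; some items under this rule and among the markers are not reported here. Replicate numbers did not pair the samples. Alternatives covered filters, normalization, DESeq2 1.42.0, length scaling, a replicate block, another control and each library left out. On data simulated for DU145 with MG63, 90 of 100 genes changed 2-fold and 99 of 100 changed 4-fold were recovered among 13307. Of the unchanged genes, 10 were also called. The changed genes were drawn from those above a set expected count in DU145 mono-culture. The recovery therefore does not cover smaller changes or members with few counts.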

Additional observations from a re-analysis of the deposited data

Results flagged for a closer look

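The average WNT7B response to MG63 was called different between the BPCa lines and the LPCa lines: BPCa minus LPCa was -0.73 on the log2 scale (edgeR, adjusted p = 0.0011). The spread in this test is that between libraries and not between lines, so that it cannot show a difference between phenotypes. The LPCa average of 0.92 joins 1.51 in 22Rv1 to 0.34 in DU145, and the BPCa lines were at 0.16 (C4-2) and 0.22 (C4-2B). Without the DU145 library that stood apart, DU145 was at 0.18 (adjusted p = 0.14), between the values of C4-2 and C4-2B, and the difference was -0.66 (adjusted p = 0.00052). With length-scaled counts it was -0.54 and not called (adjusted p = 0.37).

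The same test also called DKK1 (adjusted p = 0.032), which was tested only because its LPCa counts passed the filter. This call is not read as a difference of the responses. Its fitted value of 4.90 is no measure of size, since 5 of the 6 BPCa mono-cultures were at 0 and no BPCa co-culture exceeded 4.46 counts. The call was lost without replicate 2 of the C4-2 or the C4-2B co-cultures, without mono-culture replicate 1 or 2 of C4-2B (adjusted p of 0.052 to 0.22), with length-scaled counts (0.12) and against mono-cultures that had RANKL (fitted value 1.81, adjusted p = 0.24).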

How the results depend on the processing

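Counts of member calls, each over its lines, were 18 between the lines, 5 with MG63, 2 for the difference of MG63 responses, 0 with RAW264.7 and 8 with RANKL. With any 1 library left out they ranged over 18 to 18, 4 to 7, 1 to 3, 0 to 0 and 6 to 9. Length-scaled counts gave 0 with MG63, 0 for the difference and 2 with RANKL. SFRP1 and AXIN2 fell under the count minimum there, so that 2 of the 8 calls with RANKL and 4 of the 18 between the lines were not tested. A 2-fold change with unadjusted p under 0.05 gave 3, 1 and 4. These counts include DKK1 in C4-2 and C4-2B with MG63, DKK1 alone for the difference, and DKK1 in C4-2 with RANKL. All of these rest on BPCa values at the detection limit and are not read as changes. With MG63, DESeq2 gave 8 and the mono-cultures with RANKL as control gave 11. With that control LRP6 reversed with MG63, to 0.17 in DU145 and 0.14 in the LPCa average. The causes were not tested. With the replicate number as a block the counts were 18, 4, 2, 0 and 7, without LRP6 in DU145 with MG63 and LEF1 in 22Rv1 with RANKL. Same-numbered libraries did not deviate together (mean r of -0.014, 0.022 and 0.0055), so that the pairing is a number only.

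Of 1288 alternative values for 40 called log2 fold changes, 1156 kept direction and call, 130 lost the call and 2 reversed. Over all genes, length scaling lowered the MG63 calls from 996 to 4092 per comparison to 359 to 2390, those for the difference from 1323 to 311, and those with RANKL from 1937 to 4366 to 730 to 2191. Between the lines they went from 1834 to 10721 to 466 to 8486. Leaving out replicate 2 of DU145 with MG63 lowered the DU145 calls with MG63 from 4092 to 2016 and raised those of 22Rv1, C4-2 and C4-2B from 2744, 1355 and 996 to 4891, 3204 and 2718, so that DU145 went from most to fewest. It also raised the calls between C4-2B and C4-2 from 1834 to 3683, and those with RANKL in 22Rv1, C4-2 and C4-2B from 2388, 2466 and 1937 to 3793, 3896 and 3375. For the difference, no filter gave 882, DESeq2 1990, all 36 samples in 1 fit 2266 and the RANKL control 2750. With RAW264.7, edgeR called 1 to 16 genes, DESeq2 9 to 25 and length-scaled counts 0 to 2. With library size alone the median log2 fold change of all genes with MG63 was lowest in DU145, at -0.13, against -0.062 with TMM. Groups of 2 or 3 libraries and low counts of WNT5A, AXIN2 and TCF7 limit what could be detected.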
